A study of Mus musculus with 18 samples.

Results

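The genes described here are 32 genes of the endoplasmic reticulum (ER), the compartment in which secreted and membrane proteins are folded: its chaperones, its disulphide isomerases, its degradation and translocation machinery and the sensors of the unfolded protein response. They are chosen by a list of symbols, with no threshold on a measured value but with earlier results of these data known. Each of the 32 matched 1 Ensembl gene among the 54532 of the count table. All 32 passed the filter on low counts and belong to the 16257 genes tested. By role they are 5 stress sensors and transcription factors, 9 chaperones of the HSP70 and HSP90 systems with their co-chaperones and lumenal targets, 5 lectin chaperones and disulphide isomerases, 8 genes of ER-associated degradation and 5 genes of translocation, signal peptide cleavage and glycosylation.

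When unfolded protein builds up in the ER, sensors in its membrane (IRE1, PERK and ATF6) signal to the nucleus and to the ribosome. IRE1 splices Xbp1 mRNA into the form that encodes an active transcription factor, cleaved ATF6 enters the nucleus, and PERK slows translation and favours ATF4; the first 2 routes raise chaperone and degradation genes, and ATF4 raises genes of amino acid supply and, through CHOP, of cell death. In the intestine this response is best known from Paneth cells, goblet cells and plasma cells, which secrete large amounts of protein.

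Jejunum was taken whole from C57BL/6 mice, an inbred strain, aged 8 to 12 weeks. The control group was not irradiated, and the other mice received 1 fraction of 15 Gy to the whole abdomen at an ultra-high dose rate (FLASH) or at a conventional dose rate (CONV) and were sampled 16 h later, at that time only. The groups hold 6 control, 5 CONV and 7 FLASH libraries, called by the replicate numbers of their labels. The labels do not tie libraries to animals, and the p-values reflect only how much libraries of a group varied, which may be technical. Library totals lay between 19.9 and 30.2 M estimated counts, and levels are given in CPM (counts divided by TMM-scaled library size). The 8 absorptive enterocyte markers summed to at least 14750 CPM in every library, those of stomach to at most 0.256 CPM, and the 2 ileum markers (Fabp6 and Slc10a2) ranged from 1.35 to 286 CPM with high and low libraries in both irradiated groups.

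The control levels of these genes spanned a wide range when divided by transcript length. Calr was the most abundant at 294 CPM per kilobase, followed by Pdia3 at 184, Hsp90b1 at 176 and Hspa5 at 133 CPM per kilobase. The least abundant were Ern2 at 3.59, Derl3 at 4.54 and Ern1 at 5.19 CPM per kilobase. The 4 sensors and Derl3 were the lowest 5 of the 32, whereas Xbp1 stood at 98.9 CPM per kilobase. Chaperones and isomerases were spread over the order, down to Hyou1 at 22.5 CPM per kilobase.

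The promoters of several members carry the ER stress response element, the sequence through which ATF6 and XBP1 are known to act together with NF-Y. RefSeq promoter windows (GRCm38.p6, from 250 bases before to 50 bases after the start site) were at hand for 24 of the 32 genes, and not for Ern2, Atf6, Hyou1, Manf, Derl1, Sec61a1, Sec11c and Ostc. ERSE (CCAAT, any 9 bases, CCACG, on either strand) was found in 9 of the 24, against 0.119% of 32851 windows of the same length. ERSE-II (ATTGG, any 1 base, CCACG, on either strand) was found in Herpud1 and Dnajb11, against 0.0365% of windows. No window of a member held the UPRE (TGACG directly followed by TGG, 0.676% of windows) or the amino acid response element (TGATG, any base, AAT, 0.965% of windows), which says only that these letters are not in these windows. The stretches below are those of the genes on which the results turn, with Syvn1 as a gene that carries the element and passed no test. Each is written 5′ to 3′ in the direction of its gene, with the matched element in capitals.
Hspa5: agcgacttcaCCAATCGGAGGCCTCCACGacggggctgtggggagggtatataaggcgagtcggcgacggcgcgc
Creld2: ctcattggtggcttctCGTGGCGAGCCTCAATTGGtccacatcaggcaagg
Calr: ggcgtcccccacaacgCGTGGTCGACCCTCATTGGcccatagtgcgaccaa
Canx: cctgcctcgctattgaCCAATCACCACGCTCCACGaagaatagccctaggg
Pdia6: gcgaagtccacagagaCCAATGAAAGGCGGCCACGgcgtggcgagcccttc
Derl3: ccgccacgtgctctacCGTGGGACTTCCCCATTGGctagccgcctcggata
Syvn1: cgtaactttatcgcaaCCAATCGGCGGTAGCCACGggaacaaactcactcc
Herpud1: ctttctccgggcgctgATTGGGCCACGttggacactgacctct

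On GRCm38.p6 these stretches lie at chr2:34772015-34772089 (Hspa5, plus strand), chr15:88819504-88819554 (Creld2, plus), chr8:84847059-84847109 (Calr, minus), chr11:50325784-50325834 (Canx, minus), chr12:17266475-17266525 (Pdia6, plus), chr10:75893226-75893276 (Derl3, plus), chr19:6046516-6046566 (Syvn1, plus) and chr8:94386361-94386403 (Herpud1, plus). All end before the RefSeq start site of their gene. The Hspa5 stretch nevertheless lies inside the GENCODE M21 bounds of Hspa5 (chr2:34771970-34777547), where an annotated transcript starts further upstream. In Creld2, Calr and Derl3 the element is on the strand opposite to the gene, so that its CCAAT end reads ATTGG. The other ERSE matches were in Dnajc3 and, at 2 places, in Hsp90b1. The ERSE-II letters of Dnajb11 begin 7 bases downstream of its start site.

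Against control, CONV raised 9 of the 32 genes and lowered 2, while FLASH raised 1 and lowered 9. Set directly against CONV, FLASH libraries had 15 of the 32 genes lower and 1 higher, and 16 passed no test (edgeR quasi-likelihood test, Benjamini-Hochberg adjusted p under 0.05). Among all genes tested, 10.2% were higher and 12.0% lower in CONV than in control, 16.7% higher and 21.0% lower in FLASH than in control, and 9.88% higher and 9.91% lower in FLASH than in CONV. The members' median log2 fold change was 0.20 for CONV against control (all genes, -0.04), -0.17 for FLASH against control (all genes, -0.07) and -0.59 for FLASH against CONV (all genes, -0.02). Scaling by library totals in place of TMM moved the median of all genes to -0.25, -0.44 and -0.18 in these comparisons, and the members' calls to 6 higher and 2 lower, 1 higher and 21 lower, and 1 higher and 19 lower; with a length and GC offset, FLASH against control had 3 higher and 15 lower. These comparisons share libraries, so their values are given side by side and not as independent results. RNA came from whole tissue, in which fewer cells of a type and less RNA per cell cannot be told apart.

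CONV and control did not overlap for 4 members higher in CONV (5.46% of all genes) and 1 lower (4.95%), and FLASH and control for 1 member higher (6.93%) and 2 lower in FLASH (6.86%). FLASH and CONV did not overlap for 6 members that were lower in FLASH than in CONV (4.45% of all genes): Dnajb11, Sdf2l1, Manf, Creld2, Pdia6 and Derl2. The only member higher in FLASH than in CONV, Herpud1, did not overlap either (4.08% of all genes). Of the 32 genes, 16 had a mean above control after CONV and below control after FLASH (14.4% of all genes tested), and 6 (1.65% of all genes) were both higher in CONV than in control and lower in FLASH than in CONV by the test: Dnajb9, Dnajb11, Sdf2l1, Manf, Creld2 and Derl2. In no comparison did 12 members pass (49.4% of all genes).

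**Figure D1:**
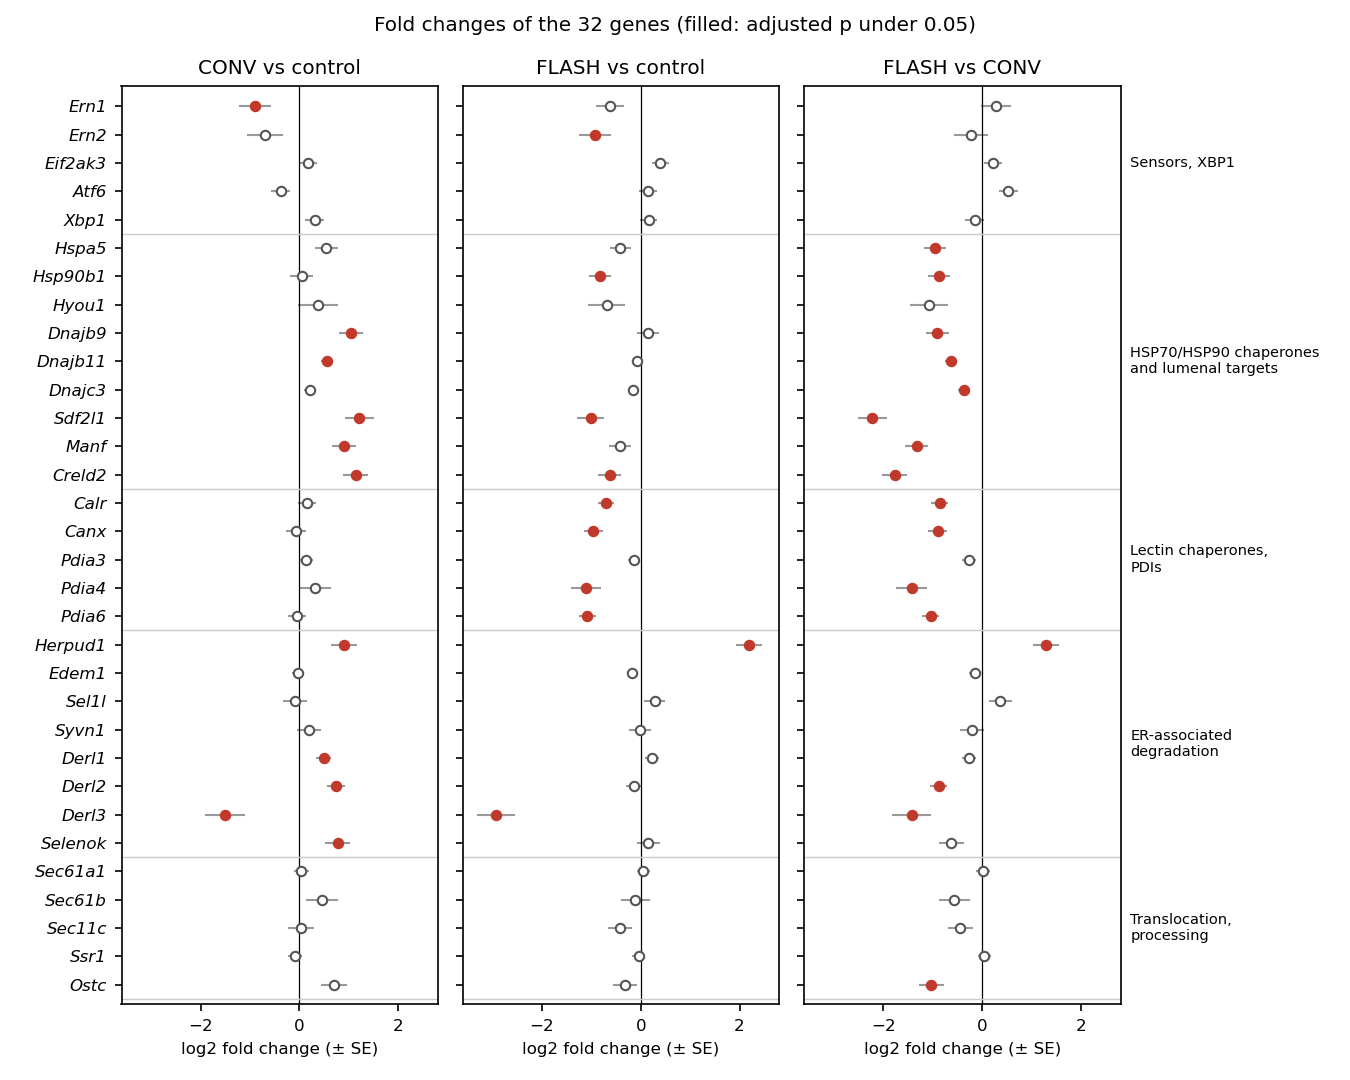
Log2 fold change (x axis, ± SE) of each of the 32 genes (rows, by role) for CONV against control, FLASH against control and FLASH against CONV; filled points had an adjusted p under 0.05. In the comparison of FLASH with CONV, 8 of 9 chaperones and 4 of 5 lectin chaperones and isomerases are filled to the left of 0, and Herpud1 is the only filled point to the right.

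Of the 5 sensors and their transcription factor, 1 fell in CONV and 1 in FLASH, and none passed between FLASH and CONV (edgeR; 1 at an unadjusted p under 0.05, 1 by DESeq2, Atf6, and 0 by limma-voom). Ern1, which encodes IRE1α, had a lowest, median and highest level of 14.5, 41.4 and 44.8 CPM in control and of 9.59, 26.2 and 31.0 CPM in FLASH, and 13.7, 25.7, 24.7, 12.9 and 19.6 CPM in CONV 2, 3, 5, 6 and 7. All CONV and FLASH libraries were below the control median, but control 6, the lowest control, lay among them. Ern1 fell in CONV (log2 fold change -0.90 ± 0.32, SE, adjusted p = 0.0485), and its log2 fold change in FLASH was -0.63 ± 0.29 (adjusted p = 0.0918). The CONV call was lost when any 1 of control 1 to 5 or of CONV 2, 6 and 7 was left out (adjusted p up to 0.136), and without control 6 the FLASH difference passed as well (-0.79, adjusted p = 0.018). Limma-voom, no filter but 1 count and the replicate block also ended the CONV call.

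Ern2, the IRE1β of mucosal epithelium, had 4.01, 10.8 and 17.1 CPM in control (lowest, median and highest), 2.9, 6.47 and 8.59 CPM in FLASH, and 3.46, 9.63, 8.94, 4.65 and 5.60 CPM in CONV 2, 3, 5, 6 and 7. It fell in FLASH (-0.93 ± 0.33, adjusted p = 0.0316) and stood at -0.69 ± 0.36 in CONV (adjusted p = 0.158). Control 6 was again within the range of both irradiated groups. Leaving out any 1 of control 1, 2, 4 and 5 or FLASH 1, 2 and 9 ended the FLASH call (adjusted p up to 0.108), and without control 6 the CONV difference passed (-0.86, adjusted p = 0.0439).

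Eif2ak3 encodes PERK. Its levels were 18.1, 31.9 and 35.9 CPM in control, 29.6, 40.7 and 45.0 CPM in FLASH (lowest, median and highest), and 23.5, 38.8, 41.2, 25.6 and 41.8 CPM in CONV 2, 3, 5, 6 and 7. The groups overlapped, with log2 fold changes of 0.18 ± 0.19 in CONV (adjusted p = 0.496) and 0.39 ± 0.17 in FLASH (adjusted p = 0.0842). The FLASH difference passed with DESeq2 (0.44, adjusted p = 0.0465) and with DESeq2 size factors (adjusted p = 0.0476). It also passed without control 6, CONV 6 and FLASH 1 (adjusted p = 0.0306). With the length and GC offset, FLASH (0.42, adjusted p = 0.00253) and CONV (0.40, adjusted p = 0.0121) both passed. In 13 fits with 1 library left out, the FLASH adjusted p was at least 0.0505. Atf6, the membrane-bound factor that is cleaved in the Golgi, had 36.2, 53.9 and 68.5 CPM in control and 44.4, 64.2 and 81.3 CPM in FLASH, with 31.7, 53.9, 54.2, 33.7 and 36.4 CPM in CONV 2, 3, 5, 6 and 7. Its CONV libraries fell into 3 low and 2 at the control median, and FLASH stood 0.53 ± 0.19 above CONV (adjusted p = 0.0584). That difference passed when CONV 3 (0.64, adjusted p = 0.0425), CONV 5 (0.64, adjusted p = 0.0383) or FLASH 5 (0.59, adjusted p = 0.0383) was left out.

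Xbp1 encodes the factor whose mRNA is spliced by IRE1; gene counts do not separate its spliced from its unspliced form. Its lowest, median and highest levels were 170.4, 208 and 268 CPM in control and 182, 204 and 356 CPM in FLASH, and CONV 2, 3, 5, 6 and 7 had 237, 213, 271, 280.4 and 307 CPM. The groups overlapped, and only FLASH 1 and FLASH 2 exceeded all other libraries. No comparison passed, at log2 fold changes of 0.31 ± 0.19 in CONV (adjusted p = 0.23), 0.16 ± 0.18 in FLASH (adjusted p = 0.509) and -0.16 ± 0.19 between FLASH and CONV (adjusted p = 0.597).

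**Figure D2:**
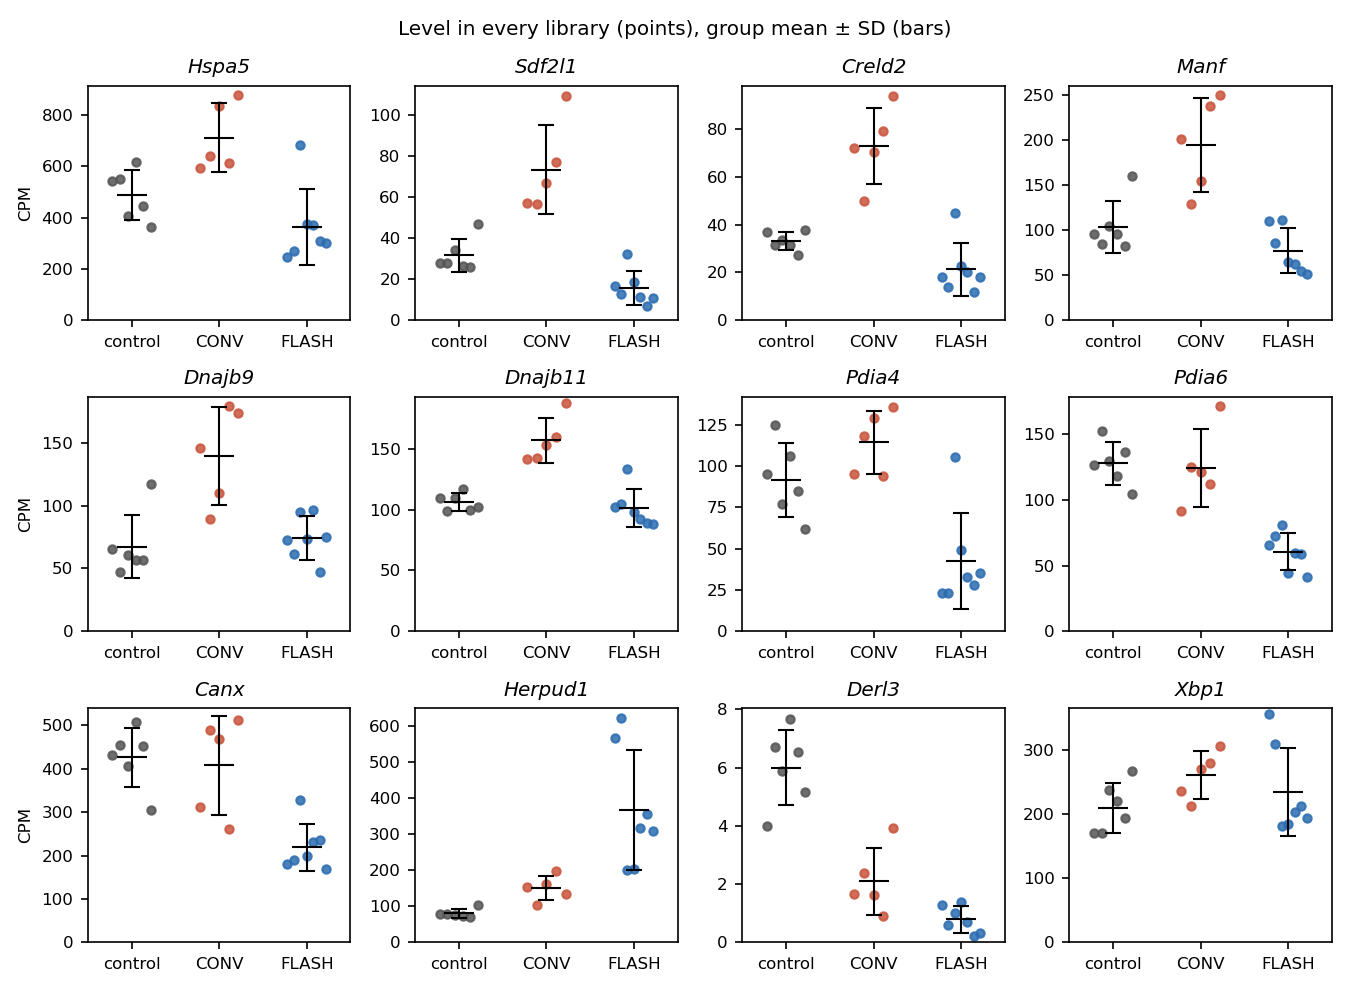
CPM (y axes, linear, from 0) of 12 members in each library (points) by group, with the group mean and SD as bars. Sdf2l1, Creld2, Manf and Dnajb11 show CONV libraries above all FLASH libraries, Herpud1 rises from control to CONV to FLASH, and 1 FLASH library, FLASH 4, stands above the other 6 for Hspa5, Creld2, Pdia4 and Canx.

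Of the 9 chaperones, co-chaperones and lumenal targets, 5 rose in CONV and 4 did not pass, 3 fell in FLASH, and 8 were lower in FLASH than in CONV. The summed level of these 9 genes was 1307 to 1827 CPM in control, 1843 to 2671 CPM in CONV and 907 to 1925 CPM in FLASH, where the 6 libraries other than FLASH 4 reached at most 1123 CPM. The greatest difference between FLASH and CONV among the 32 genes was that of Sdf2l1, which encodes a lumenal partner of the HSP70 co-chaperones (chr16:17130138-17132383, minus strand). Sdf2l1 had 26.2, 28.0 and 47.1 CPM in control and 7.21, 12.7 and 32.2 CPM in FLASH (lowest, median and highest), and 57.1, 56.7, 66.8, 77.3 and 109 CPM in CONV 2, 3, 5, 6 and 7. Each CONV library was above each control and FLASH library, and 6 of the 7 FLASH libraries were below each control. Sdf2l1 rose in CONV (1.21 ± 0.30, adjusted p = 0.0083), fell in FLASH (-1.01 ± 0.27, adjusted p = 0.00734) and was 4.67-fold lower in FLASH than in CONV (-2.22 ± 0.29, adjusted p = 0.000188).

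Creld2, which encodes a secreted protein of the ER stress response, followed the same order of groups. It had 27.3, 32.7 and 37.6 CPM in control and 11.9, 18.3 and 44.9 CPM in FLASH, and 71.7, 49.7, 70.4, 79.0 and 93.6 CPM in CONV 2, 3, 5, 6 and 7. CONV was above every other library, and FLASH 4 was the one FLASH library above the control group. Creld2 rose in CONV (1.14 ± 0.26, adjusted p = 0.00529) and was 3.41-fold lower in FLASH than in CONV (-1.77 ± 0.25, adjusted p = 0.000281). Its fall against control in FLASH (-0.63 ± 0.24, adjusted p = 0.0441) was lost when any 1 control or FLASH library other than FLASH 4 was left out (adjusted p up to 0.0971), and was -0.89 without FLASH 4 (adjusted p = 0.000609). In all, that call was lost in 18 of 22 alternative runs, among them DESeq2 and the replicate block (adjusted p up to 0.133).

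Manf encodes a secreted neurotrophic factor that binds the main ER chaperone. Control libraries had 82.4, 95.7 and 161 CPM, FLASH libraries 51.9, 65.1 and 112 CPM (lowest, median and highest), and CONV 2, 3, 5, 6 and 7 had 201, 129, 155, 238 and 251 CPM. Control 6, the highest control, lay within the CONV range, and all FLASH libraries lay below it. Manf rose in CONV (0.90 ± 0.24, adjusted p = 0.0132) and was 2.51-fold lower in FLASH than in CONV (-1.33 ± 0.23, adjusted p = 0.00109), with -0.43 ± 0.22 for FLASH against control (adjusted p = 0.136).

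Dnajb9 (ERdj4) and Dnajb11 (ERdj3) encode J-domain co-chaperones of the ER HSP70. Dnajb9 had 46.9, 59.1 and 117 CPM in control, 47.1, 73.2 and 96.3 CPM in FLASH, and 146, 89.5, 109.7, 179 and 173 CPM in CONV 2, 3, 5, 6 and 7. It rose 2.07-fold in CONV (log2 1.05 ± 0.24, adjusted p = 0.00545), although control 6 overlapped with CONV. Dnajb11 had 98.9, 106 and 117 CPM in control, 88.1, 97.9 and 133 CPM in FLASH, and 142, 143, 153, 159.6 and 187 CPM in CONV 2, 3, 5, 6 and 7. Its CONV libraries stood above all others, and its rise in CONV was 1.48-fold (0.56 ± 0.13, adjusted p = 0.00462). With library totals in place of TMM, that rise did not pass (0.35, adjusted p = 0.0608). Both genes were lower in FLASH than in CONV, Dnajb9 at -0.91 ± 0.23 (adjusted p = 0.0106) and Dnajb11 at -0.63 ± 0.12 (adjusted p = 0.00191), and neither passed between FLASH and control.

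The 4 others of this group are Hspa5 (BiP, the ER HSP70), Hsp90b1 (GRP94, the ER HSP90), Hyou1 (GRP170, which exchanges the nucleotide of BiP) and Dnajc3 (p58IPK, a co-chaperone that also inhibits PERK). Hspa5 ranged over 365 to 615 CPM in control, 592 to 879 CPM in CONV and 248 to 683 CPM in FLASH, where the 6 libraries other than FLASH 4 reached at most 374 CPM. It was 1.95-fold lower in FLASH than in CONV (-0.96 ± 0.22, adjusted p = 0.00624), and neither radiation group passed against control (0.54 ± 0.23, adjusted p = 0.0923, in CONV; -0.42 ± 0.21, adjusted p = 0.13, in FLASH). Without FLASH 4 the FLASH level of Hspa5 was below control (-0.60, adjusted p = 0.00793). Hsp90b1, at 312 to 603 CPM in control, 401 to 642 CPM in CONV and 204 to 512 CPM in FLASH, was lower in FLASH than in both other groups (-0.82 ± 0.21 against control, adjusted p = 0.00577, and -0.87 ± 0.22 against CONV, adjusted p = 0.0114).

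Hyou1 was the one chaperone that passed no test in the main edgeR fit, and its FLASH libraries spread most of all members, from 22.4 to 161 CPM (coefficient of variation 74.9%). Its log2 fold change between FLASH and CONV was -1.07 ± 0.38 (adjusted p = 0.0553). That difference passed with DESeq2 (-1.05, adjusted p = 0.0342), limma-voom (-1.31, adjusted p = 0.0231) and the length and GC offset (-1.38, adjusted p = 0.00269). It also passed with library totals, with a replicate block and without control 6, CONV 6 and FLASH 1 (adjusted p from 0.0367 to 0.0485). Of 12 fits with 1 library left out, only that without FLASH 4 passed. There the log2 fold change was -1.47 (adjusted p = 0.00259), and against control it was -1.09 (adjusted p = 0.00721). Dnajc3 was lower in FLASH than in CONV by -0.37 ± 0.11 (adjusted p = 0.0287), the smallest difference called among the members, and lost the call without CONV 5, CONV 7, FLASH 6, FLASH 7 or FLASH 9 (adjusted p up to 0.0922).

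Of the 5 lectin chaperones and disulphide isomerases, none passed in CONV against control (edgeR, median log2 fold change 0.13; 0 at an unadjusted p under 0.05, 0 by DESeq2 and 0 by limma-voom). In FLASH, 4 of the 5 fell against control and the same 4, Calr, Canx, Pdia4 and Pdia6, were lower than in CONV. Calr, the calcium-binding lectin calreticulin, had 523, 654 and 713 CPM in control, 295, 379 and 565 CPM in FLASH (lowest, median and highest), and 536, 703, 742, 594 and 987 CPM in CONV 2, 3, 5, 6 and 7. FLASH 4 was the one FLASH library within the control range. Calr fell in FLASH by -0.71 ± 0.16 (adjusted p = 0.0024) and was 1.81-fold lower there than in CONV (adjusted p = 0.00258).

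Canx encodes calnexin, the membrane-bound lectin of the same folding cycle. It had 305, 443 and 507 CPM in control, 168, 200.2 and 327 CPM in FLASH, and 311, 488, 469, 261 and 511 CPM in CONV 2, 3, 5, 6 and 7. CONV 2 and CONV 6 were below FLASH 4, and the other FLASH libraries were below all CONV libraries. Canx fell by -0.96 ± 0.19 in FLASH against control (adjusted p = 0.000619) and by -0.90 ± 0.20 against CONV (adjusted p = 0.00433).

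Pdia6, an isomerase that acts with BiP, had the smallest p of the group, with 104, 128 and 152 CPM in control, 41.7, 59.7 and 80.7 CPM in FLASH, and 91.4, 125, 121, 112 and 172 CPM in CONV 2, 3, 5, 6 and 7. No FLASH library, FLASH 4 included, reached the lowest control or CONV library. The fall was 2.11-fold against control (-1.08 ± 0.17, adjusted p = 8.07e-05) and 2.05-fold against CONV (-1.04 ± 0.17, adjusted p = 0.000935). Pdia4 (ERp72) ranged over 61.8 to 125 CPM in control, 94.0 to 136 CPM in CONV and 23.0 to 105.4 CPM in FLASH, with FLASH 4 highest and the other 6 reaching at most 49.3 CPM. Its log2 fold change was -1.11 ± 0.30 against control (adjusted p = 0.00706) and -1.43 ± 0.31 against CONV (adjusted p = 0.00444). Pdia3 (ERp57), the isomerase that partners both lectins, passed no test, with -0.27 ± 0.14 between FLASH and CONV (adjusted p = 0.173).

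**Figure D3:**
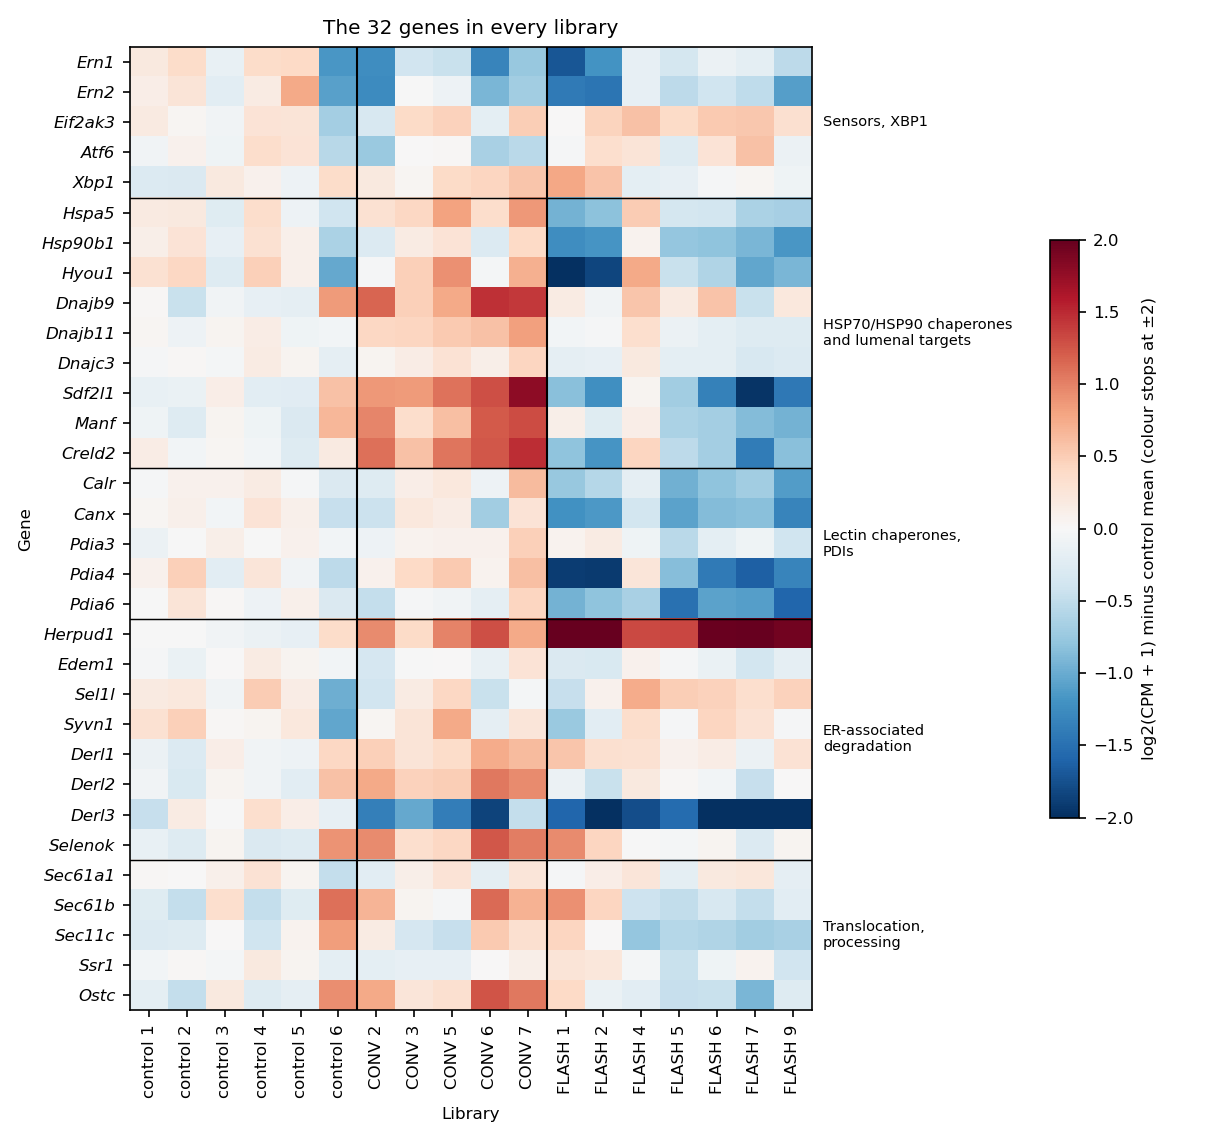
Log2(CPM + 1) of each of the 32 genes (rows, by role) in each of the 18 libraries (columns), minus the mean of the 6 controls; the colour scale ends at 2 in each direction. Most chaperone and isomerase rows are blue in the FLASH libraries other than FLASH 4, with Dnajb9 and Pdia3 among the exceptions, Herpud1 is red in all 12 irradiated libraries and Derl3 is blue in all of them.

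The 8 genes of ER-associated degradation, which returns misfolded protein to the proteasome, did not move as a group: 4 rose and 1 fell in CONV, 1 rose and 1 fell in FLASH, and 1 was higher and 2 lower in FLASH than in CONV. Herpud1, which encodes a membrane protein of the retrotranslocation complex, was the one member that rose in both irradiated groups and the one higher in FLASH than in CONV. It had 71.5, 77.8 and 104 CPM in control, 201, 317 and 623 CPM in FLASH (lowest, median and highest), and 155, 105, 161, 198 and 136 CPM in CONV 2, 3, 5, 6 and 7. The 3 groups did not overlap, although the gap between control 6 and CONV 3 and that between CONV 6 and FLASH 4 were narrow, and FLASH 1 and FLASH 2 were the highest. Herpud1 rose 4.56-fold in FLASH (2.19 ± 0.26, adjusted p = 5.23e-06) and was 2.44-fold higher there than in CONV (1.29 ± 0.26, adjusted p = 0.00308). In CONV it rose 1.87-fold (0.90 ± 0.26, adjusted p = 0.0211), a call that was lost without control 5 (0.86, adjusted p = 0.0524) or CONV 6 (0.78, adjusted p = 0.0714).

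Derlins form part of the channel through which misfolded proteins leave the ER, and 3 of them are members. Derl2 had 32.5, 38.3 and 61.2 CPM in control, 29.0, 38.8 and 46.3 CPM in FLASH, and 69.1, 56.0, 56.7, 85.1 and 78.2 CPM in CONV 2, 3, 5, 6 and 7. CONV stood above FLASH without overlap and above 5 of the 6 controls, and Derl2 rose in CONV (0.75 ± 0.18, adjusted p = 0.00657) and was lower in FLASH than in CONV (-0.88 ± 0.17, adjusted p = 0.00197). Derl1 rose in CONV by 0.49 ± 0.15 (adjusted p = 0.0244), and without control 1, control 2, control 5, CONV 6 or CONV 7 the call was lost (adjusted p up to 0.082).

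Derl3 fell in both irradiated groups and most in FLASH. Its levels were 4.0, 6.21 and 7.67 CPM in control, 0.213, 0.711 and 1.37 CPM in FLASH (6 to 32 reads per library), and 1.68, 2.37, 1.64, 0.903 and 3.94 CPM in CONV 2, 3, 5, 6 and 7. Every irradiated library was below every control, and CONV 6 lay within the FLASH range. The log2 fold change was -1.50 ± 0.40 in CONV (adjusted p = 0.0145) and -2.93 ± 0.39 in FLASH (7.63-fold lower, adjusted p = 1.73e-05). Between FLASH and CONV it was -1.43 ± 0.40 (adjusted p = 0.0169), and -1.08 without CONV 7 (adjusted p = 0.0779).

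Selenok, a selenoprotein that binds the derlins, rose in CONV (0.77 ± 0.25, adjusted p = 0.0368) but lost the call without any 1 of control 1 to 5 or CONV 2, 6 and 7 (adjusted p up to 0.117). Between FLASH and CONV its log2 fold change was -0.62 ± 0.24 (adjusted p = 0.0782), and -0.79 without FLASH 1 (adjusted p = 0.0203). The ubiquitin ligase Syvn1 (HRD1), its partner Sel1l and Edem1, a lectin that hands glycoproteins to them, passed no test. Their log2 fold changes were 0.19, -0.09 and -0.03 in CONV, -0.02, 0.28 and -0.17 in FLASH, and -0.21, 0.37 and -0.14 between FLASH and CONV.

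Of the 5 genes of translocation and processing at the ER membrane, none passed between either radiation group and control (edgeR), and only Ostc was lower in FLASH than in CONV. At an unadjusted p under 0.05 there was 1 in CONV and 0 in FLASH, DESeq2 called 0 in each, and limma-voom called 1 in CONV and 0 in FLASH. Ostc, a subunit of the oligosaccharyltransferase, ranged over 69.3 to 186 CPM in control, 115 to 233 CPM in CONV and 51.1 to 129 CPM in FLASH, and its log2 fold change between FLASH and CONV was -1.03 ± 0.25 (adjusted p = 0.00913). Its difference between CONV and control (0.70 ± 0.26, adjusted p = 0.061) passed without control 6 (0.95, adjusted p = 0.00455), CONV 3 (0.81, adjusted p = 0.0402) or CONV 5 (0.80, adjusted p = 0.0487). The translocon subunits Sec61a1 and Sec61b, the signal peptidase subunit Sec11c and the translocon-associated Ssr1 had log2 fold changes between FLASH and CONV of 0.01, -0.56, -0.45 and 0.04, with adjusted p from 0.217 to 0.961. Without control 6, Sec61b passed between CONV and control (0.77, adjusted p = 0.0423), and without FLASH 1, Sec11c passed between FLASH and control (-0.60, adjusted p = 0.0444).

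Single libraries carried a large share of the spread. FLASH 4 was the highest FLASH library for 18 of the 32 genes, CONV 7 the highest CONV library for 17, and control 6 was the highest control for 12 and the lowest for 16. The median coefficient of variation of a member was 21.7% in control, 25.0% in CONV and 27.6% among FLASH libraries. Control 6, CONV 6 and FLASH 1 had the lowest slope of expression on transcript length in their groups (-0.41, -0.43 and -0.34). Low slopes were not confined to them: CONV 2 and CONV 7 stood at -0.32 and -0.21, and control 2, the highest library, at 0.32. The part of this trend in the differences was not tested. With control 6, CONV 6 and FLASH 1 left out, 11 members were higher and 2 lower in CONV than in control. In FLASH, 2 were then higher and 9 lower than in control, and 1 higher and 17 lower than in CONV. With the length and GC offset, 11 members were higher and 3 lower in CONV than in control, and 1 higher and 17 lower in FLASH than in CONV. Without FLASH 4, 11 members fell in FLASH and 16 were lower than in CONV. The 2 genes lower in CONV became 1 (Derl3) when any of control 1 to 5 or CONV 2, 6 and 7 was left out, and 3 without control 6. Without CONV 3, CONV 5 or FLASH 5, the genes higher in FLASH than in CONV became 2, Herpud1 and Atf6.

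Some markers of other cell types changed between the same groups. Their counts are to be read against all genes tested, of which 10.2% rose and 12.0% fell in CONV and 16.7% rose and 21.0% fell in FLASH. Between FLASH and CONV, 9.88% of all genes were higher and 9.91% lower. Those of absorptive enterocytes summed to 14750 to 27540 CPM in control, 41314 to 73623 CPM in CONV and 41799 to 71250 CPM in FLASH, with 3 of 8 called higher in CONV, 5 of 8 in FLASH, and 1 higher and 1 lower in FLASH than in CONV. Of 8 Paneth cell markers, 7 were lower in FLASH than in control and 7 lower than in CONV, while 1 rose and none fell in CONV. Summed, they stood at 14857 to 20196 CPM in control, at 11582 to 20167 CPM in CONV and at 4424 to 12722 CPM in FLASH. Most chaperones and isomerases were also low in FLASH. FLASH 4 had a chaperone sum of 1925 CPM, above all controls (1307 to 1827 CPM). Its Paneth marker sum was 6738 CPM, the median of the FLASH group. FLASH 1 had the highest Paneth marker sum of that group, 12722 CPM, with a chaperone sum of 911 CPM. Whether these sums are linked was not tested. Lyz1, the lysozyme of Paneth cells, was 2210 CPM in FLASH against 6721 CPM in control and 5437 CPM in CONV.

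Of 10 plasma cell markers, 6 fell in CONV and 8 in FLASH, and their summed level dropped from 4980 to 10307 CPM in control to 660 to 1881 CPM in CONV and 826 to 2137 CPM in FLASH. That sum was mostly Igha and Jchain, with control means of 5257 and 1505 CPM. Sdc1 and Prdm1 passed against control in neither irradiated group. Between FLASH and CONV, 1 of the 10 was higher (Prdm1, 1.31) and 2 were lower (Tnfrsf17, -1.74, and Mzb1, -1.28). Derl3 fell in the same 2 groups as these markers. Goblet cell markers summed to 5195 to 8082 CPM in control, 7099 to 9437 CPM in CONV and 6733 to 9390 CPM in FLASH. Of these 8, 2 rose (Zg16 and Tff3) and 1 fell (Muc2, -1.21) in CONV, and 1 rose (Zg16) and 2 fell (Muc2, -0.99, and Agr2, -1.05) in FLASH. Only Agr2, itself an isomerase of the ER, differed among the 8 between FLASH and CONV (-1.10, adjusted p = 0.00306). None of the markers of these 4 cell types was at 0 in all libraries, and their part in the differences between groups was not tested.

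**Figure D4:**
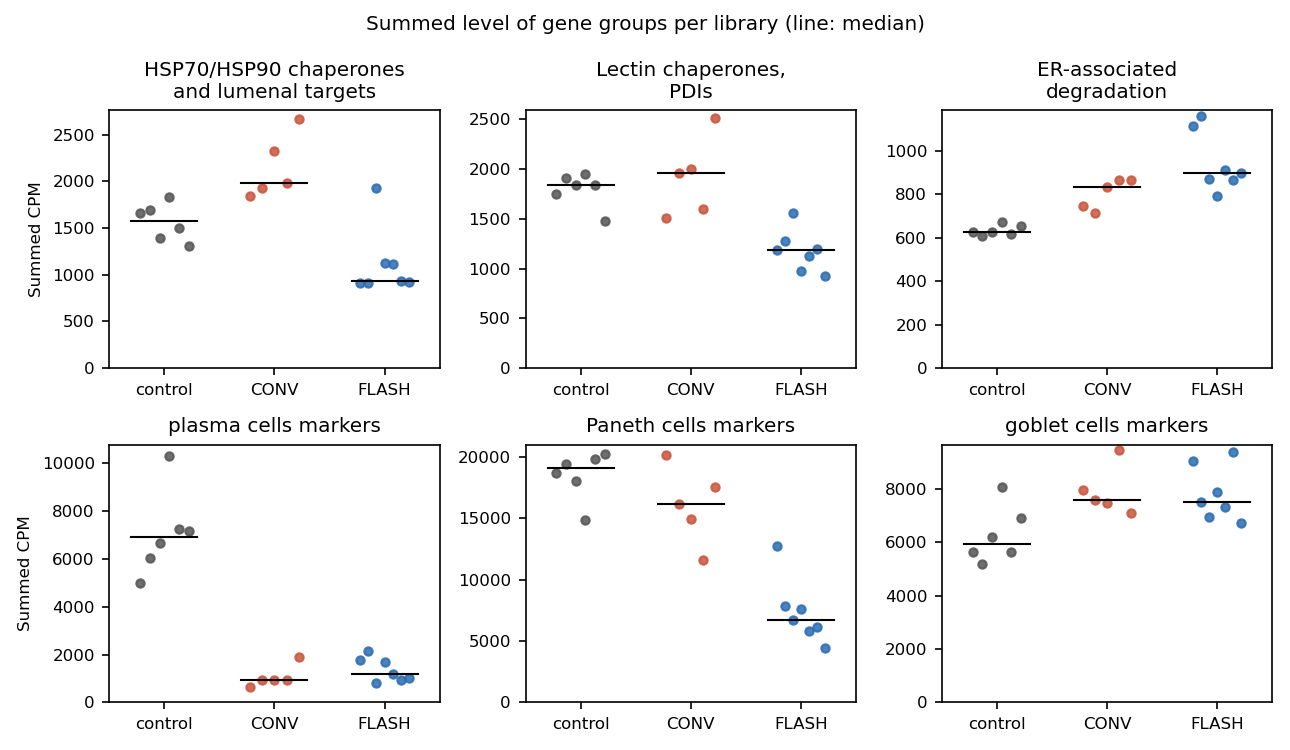
Summed CPM per library (y axes, linear, from 0) for 3 roles of the 32 genes (top row) and for the markers of plasma, Paneth and goblet cells (bottom row), by group, with a line at the median. The chaperone sum of 6 FLASH libraries and the Paneth cell sum of all 7 lie below all controls. The plasma cell sum, mostly Igha and Jchain, is low in both irradiated groups.

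Members with an ERSE or ERSE-II in the promoter window were compared with the others by count. Of the 11 members with a match, 9 were lower and 1 higher in FLASH than in CONV, with a median log2 fold change of -0.87. Of the 13 with a window and no match, 4 were lower (Sdf2l1, Dnajb9, Pdia4 and, with 2 windows, Derl2), with a median of -0.27. These sets also differ in role. Most members with a match belong to the chaperone and isomerase roles, and no sensor with a window had one. Within the chaperone and isomerase roles, Sdf2l1, Dnajb9 and Pdia4 were lower without a match, and Pdia3 passed no test. Element and role were not tested apart. Against control, CONV raised 3 and lowered 1 of the 11 with a match (median 0.19) and raised 4 and lowered 1 of the 13 without (median 0.31). FLASH raised 1 and lowered 6 of the 11 (median -0.63), and raised 0 and lowered 2 of the 13 (median -0.11). Outside the list, 38 genes had a match and 19 of them were tested (median -0.03 for FLASH against CONV). Of these, 2 were higher in FLASH than in CONV (Hnrnpa3, 0.55, and Nucb1, 0.44) and 2 lower (Alg12 and Xlr3a, the latter by -1.72). Among all genes tested, 9.88% were higher and 9.91% lower. Alg12, singled out after its values were seen, is a mannosyltransferase gene that shares its promoter region with Creld2 on the opposite strand of chromosome 15. Alg12 rose in CONV from 10.1 to 17.9 CPM (0.83 ± 0.18, adjusted p = 0.00419) and was lower in FLASH than in CONV (-1.09 ± 0.18, adjusted p = 0.000702).

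Beyond the 32 genes, 82 further genes of the same pathways were listed in 6 groups, and all were tested. In CONV 14 rose and 1 fell, in FLASH 18 rose and 13 fell, and between FLASH and CONV 5 were higher and 16 lower (median log2 fold change -0.11). Among all genes tested, 10.2% rose and 12.0% fell in CONV, and 16.7% rose and 21.0% fell in FLASH. Between FLASH and CONV, 9.88% of all genes were higher and 9.91% lower. The counts of the 6 groups are to be read against these shares. In the PERK and ATF4 branch (12 genes) 2 rose in CONV: Sesn2, a stress-induced regulator of mTORC1 that p53 also raises (2.01 ± 0.18), and Ddit3, which encodes CHOP (1.09 ± 0.33, adjusted p = 0.024). In FLASH, 4 genes rose and 2 fell, with the smallest p for Sesn2 (2.09 ± 0.17), the pseudokinase gene Trib3 (1.29 ± 0.30) and Atf3 (-1.14 ± 0.28). Ddit3 was lower in FLASH than in CONV (-1.19 ± 0.31, adjusted p = 0.0131), with means of 7.61, 16.3 and 7.12 CPM in control, CONV and FLASH, and Eif2s1, which encodes eIF2α, was lower by -0.58 (adjusted p = 0.0467).

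The further 14 genes of oxidative folding were divided. P4hb, the abundant isomerase PDI that also serves lipoprotein assembly, rose in CONV (1.2 ± 0.21) and FLASH (1.36 ± 0.19), and so did the sulphydryl oxidase gene Qsox1 (1.26 ± 0.26 and 1.67 ± 0.25), whereas Pdia5 fell in FLASH (-1.30 ± 0.15) and was lower there than in CONV (-1.16 ± 0.16). In all, 3 rose in CONV (Txndc11 the third, 0.38), 2 rose and 4 fell in FLASH, and 2 were lower in FLASH than in CONV (Pdia5 and Erp44, the latter by -0.53). Of 16 further degradation genes, 6 rose and 1 fell in FLASH, among them Ufd1 (0.97), which extracts substrates with VCP, and the mannosidase gene Man1b1 (-0.53), and 2 rose in CONV (Ufd1 at 0.64 and Ubxn4 at 0.28). Between FLASH and CONV, 2 of these were higher, Nploc4 (0.66) among them, and 2 lower, Edem2 (-0.50) and Man1b1 (-0.40).

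Of 16 translocon and signal peptidase genes, 5 rose in CONV, with the smallest p for Srp72 (0.55) and Srprb (0.49) of the signal recognition particle and its receptor and for the peptidase gene Sec11a (0.53), and 5 were lower in FLASH than in CONV, with the smallest p for Srprb (-0.66), Spcs2 (-0.88) and Spcs3 (-0.82). In FLASH against control 1 rose (Sec62, 0.48) and 2 fell (Spcs3, -0.58, and Spcs2, -0.49). Of 11 oligosaccharyltransferase genes none passed in CONV (edgeR; 1 at an unadjusted p under 0.05, 0 by DESeq2 and 0 by limma-voom), 2 fell in FLASH (Magt1, -0.85, and Ddost, -0.46) and 3 were lower than in CONV (Magt1, -0.98, Ddost, -0.55, and Tmem258, -0.77). Of 13 other regulators 2 rose and 1 fell in CONV, 5 rose and 2 fell in FLASH, and 3 were higher and 2 lower in FLASH than in CONV. Bax, a mediator of apoptosis and a target of p53, rose in CONV (2.19 ± 0.20) and FLASH (1.76 ± 0.19), and the liver and gut factor Creb3l3 rose in CONV (1.09 ± 0.26) and further in FLASH (1.90 ± 0.25, and 0.82 ± 0.26 above CONV). Creb3l1 fell in CONV (-1.30 ± 0.33) and in FLASH (-1.10 ± 0.29, adjusted p = 0.00618), and Atf6b, the paralogue of Atf6, was lower in FLASH than in control (-0.95 ± 0.19) and than in CONV (-0.97 ± 0.20). Tmbim6, an inhibitor of IRE1 signalling and apoptosis, was higher in FLASH than in CONV by 0.43 (adjusted p = 0.0315).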

How the data were processed

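Whole-jejunum RNA of 18 libraries was sequenced as single-end reads of 100 bp after stranded mRNA library preparation from 250 ng, per the labels' protocols. The submitters' processing notes name STAR, Salmon, edgeR 3.40.2, limma 3.54.2 and mm10. The deposited table holds expected counts per Ensembl gene, which were rounded. The authors' second table, of normalized log2 values, was not used. The 32 genes and all lists were chosen with earlier results of these data known.

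All 18 libraries entered 1 edgeR 4.0.16 quasi-likelihood fit (R 4.3.3) with group as the only term, TMM scaling and filterByExpr. P-values were adjusted by Benjamini-Hochberg over 16257 genes, with a threshold of 0.05. Log2 fold changes are positive where the first group named is higher, and errors are standard errors derived from the F statistic. CPM used TMM-scaled library sizes, and length is that of 1 principal GENCODE M21 transcript per gene. Library values were given for the 5 members with the smallest p in each comparison and for the sensors, and for each further list up to 3 genes with the smallest p per comparison were named, except 1 that is not reported here. On simulated data of 16016, 15992 and 16024 genes for CONV against control, FLASH against control and FLASH against CONV, changes of 2-fold were found in 33, 43 and 50% of cases, and changes of 4-fold in 83, 95 and 92%. False calls made up 4.92, 3.5 and 2.74% of calls. Only 200 genes were changed in each simulation, far fewer than were called in the data. These rates depend on that share and need not hold for the data. Alternatives were DESeq2 1.42.0 and its size factors, library totals, no filter but 1 count, limma-voom (limma 3.58.1), fits of only the groups compared, a replicate block, a length and GC offset, a fit without control 6, CONV 6 and FLASH 1, and fits without each library in turn. Markers of crypt stem cells, exocrine pancreas, smooth muscle and fibroblasts were also listed: they summed to 679 to 1148, 77.1 to 116, 1110 to 3261 and 215 to 867 CPM in control, to 72.2 to 179, 38.9 to 64.0, 152 to 1039 and 90.8 to 283 CPM in CONV, and to 73.7 to 144, 15.4 to 66.7, 347 to 1134 and 149 to 259 CPM in FLASH. The pancreas sum was nearly all Clps, and 3 of its 8 markers were at 0 in all libraries.

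Promoters came from the RefSeq table (GRCm38.p6), of which 21 of 25 member windows had their transcribed part in a GENCODE transcript of the same gene. Python 3.11.15 was used.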

Additional observations from a re-analysis of the deposited data

Results flagged for a closer look

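In 16 of 96 combinations of a member and a group, 1 library stood apart from the rest by Dixon's criterion at the 95% level. For normally distributed values, chance meets it in about 1 in 20 groups. It was applied to CPM without a log scale, for which that rate need not hold. The 96 are not independent, since they share 18 libraries.

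FLASH 4 stood above the other 6 FLASH libraries for 8 genes. Its level was 683 CPM for Hspa5 (others 248 to 374), 512 CPM for Hsp90b1 (204 to 285), 161 CPM for Hyou1 (22.4 to 70.2) and 133 CPM for Dnajb11 (88.1 to 104). It was 151 CPM for Dnajc3 (105 to 118), 44.9 CPM for Creld2 (11.9 to 22.7), 327 CPM for Canx (168 to 236) and 105.4 CPM for Pdia4 (23.0 to 49.3).

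Control 6 stood above the other 5 controls for 7 genes. Its level was 117 CPM for Dnajb9 (others 46.9 to 65.1), 161 CPM for Manf (82.4 to 105), 103.8 CPM for Herpud1 (71.5 to 80.04) and 61.2 CPM for Derl2 (32.5 to 42.0). It was 92.2 CPM for Selenok (39.9 to 50.7), 106 CPM for Sec11c (44.3 to 61.6) and 186 CPM for Ostc (69.3 to 112). CONV 7 stood above the other CONV libraries for Pdia3, at 708 CPM (476 to 540.0).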

How the results depend on the processing

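Of the 37 calls on members, 27 were kept in every alternative run (5 of 11 for CONV against control, 8 of 10 for FLASH against control and 14 of 16 for FLASH against CONV), and none changed sign. The calls lost most often were Creld2 in FLASH (18 of 22 runs) and Selenok and Ern1 in CONV (12 and 11 of 20). Derl1 in CONV (8 of 20), Ern2 in FLASH (8 of 22) and Dnajc3 in FLASH against CONV (8 of 21) followed. Members lower in CONV than in control (2) became 1 with no filter but 1 count and 1 with limma-voom, and 1 to 3 with a library left out. Members higher in FLASH than in control (1) became 2 with DESeq2 size factors, 2 with DESeq2, 2 without control 6, CONV 6 and FLASH 1, and 3 with the length and GC offset, and stayed at 1 to 1 with a library left out. Members lower in FLASH than in control (9) became 21 with library totals, which shifted the median of all genes to -0.44, and 15 with the length and GC offset, and ranged over 7 to 11 with a library left out. Members higher in FLASH than in CONV (1) became 2 with DESeq2 size factors and 2 with DESeq2, and 1 to 2 with a library left out. Members higher in CONV than in control ranged over 6 to 11, and members lower in FLASH than in CONV over 13 to 16, with a library left out. Sec11c reversed in CONV against control under the length and GC offset, from 0.03 to -0.39 (adjusted p = 0.0162). Where no construction shows it, the cause was not tested.

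The labels state no pairing of libraries by replicate number. Over 13 same-numbered pairs the correlation ranged from -0.27 to 0.606, and 4 of the 18 libraries matched best with their own number. These values do not settle whether the numbers mark pairs. With the replicate block (17 libraries), 7 members were higher and 0 lower in CONV, 1 higher and 7 lower in FLASH, and 1 higher and 14 lower in FLASH than in CONV. Derl3 lost its calls in CONV (-1.52, adjusted p = 0.0603) and in FLASH against CONV (-1.30, adjusted p = 0.129) under this block. Depth limits Derl3 most among the members, at 6 to 32 reads per FLASH library.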
